A study of Homo sapiens with 45 samples.

Results

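Interferon-stimulated genes are the antiviral genes that cells switch on after an interferon signal. The set described here holds 45 of them, of 38557 genes in all. The members were chosen by symbol with earlier results of these data known, although the rule itself used no measured value. Every one had a row in both deposited tables of TPM, transcripts per 1000000, a unit that divides reads by gene length. Genes entered the tests where 3 or more libraries of their table reached 1 TPM. By that filter 41 members had a test in Jurkat and 44 in the remaining lines, while IFI44L was tested in neither and OASL, MX1 and MX2 in the other lines alone.

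Poly(A) RNA of 4 human T-cell acute lymphoblastic leukaemia (T-ALL) lines was sequenced in 45 libraries, 3 for each of 15 groups, and the series addresses what happens when cBAF, a chromatin remodelling complex, is depleted or inhibited. In Jurkat cells expressing Cas9, guides against ARID1A (gARID1A), ARID1A and ARID1B (gARID1A_1B), SMARCA4 (gSMARCA4) or SMARCA4 and SMARCA2 (gSMARCA4_A2) were set against guides to AAVS1 (gAAVS1), a site used as a harmless cutting control. All 5 guide groups were selected in puromycin for 4 days and collected on day 10 after transduction, and no source used here describes them as single clones. ARID1A and ARID1B are alternative subunits that define cBAF, and SMARCA4 and SMARCA2 are its alternative ATPase motors. Further Jurkat cells had 1 uM BRM014, an inhibitor of both ATPases, for 6 h or 8 d, against 0.01% DMSO for the same time. In KOPT-K1, CCRF-CEM and TALL-1 the cells had 1 uM BRM014 for 6 h, against 0.01% DMSO for 6 h.

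Type I interferons bind the receptor pair IFNAR1 and IFNAR2, whose kinases JAK1 and TYK2 phosphorylate STAT proteins, among them STAT2. Joined by IRF9, these form a complex that binds the interferon-stimulated response element (ISRE), while interferon gamma works through a different element, GAS. Many members also have a basal level without added interferon, which IRF1 and unphosphorylated STAT complexes are known to support. Their products sense viral RNA, cut or trap it, stop translation, modify proteins with ISG15 or ADP-ribose, or block viral entry and release at membranes.

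Promoter sequences are given first, since both elements lie there and the members that rose and those that fell can be compared by them. RefSeq promoter windows of GRCh38.p14, from 250 bases before to 50 bases after a start, were matched by symbol for 36 of the 45 members. An ISRE core, GAAANNGAAA on either strand, was found in windows of 24 of these 36 genes (66.7%), against 4.38% of all 27305 genes with a window and 3.57% of all 35116 windows. A GAS core, TTCNNNGAA, which reads alike on both strands, was found for 11 of the 36 (30.6%), against 9.38% of all genes. Both counts take overlapping matches, and an ISRE core can overlap a GAS core. The windows below are shown with matches in capitals, and they were picked for how these genes behaved.
IFIT3, chr10:89327747-89328046, plus strand: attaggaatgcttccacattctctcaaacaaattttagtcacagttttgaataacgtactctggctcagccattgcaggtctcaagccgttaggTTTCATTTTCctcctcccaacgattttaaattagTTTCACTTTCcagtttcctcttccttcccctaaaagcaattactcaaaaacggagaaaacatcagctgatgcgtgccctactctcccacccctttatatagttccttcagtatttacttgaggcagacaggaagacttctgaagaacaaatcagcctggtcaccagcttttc
ISG15, chr1:1013247-1013546, plus strand: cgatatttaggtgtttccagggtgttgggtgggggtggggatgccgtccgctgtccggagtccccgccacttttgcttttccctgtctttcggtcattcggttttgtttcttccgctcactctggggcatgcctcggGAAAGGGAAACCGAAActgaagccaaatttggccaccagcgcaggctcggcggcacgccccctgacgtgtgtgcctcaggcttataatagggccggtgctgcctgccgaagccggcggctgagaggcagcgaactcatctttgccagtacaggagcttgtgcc
IRF1, chr5:132490724-132491023, minus strand: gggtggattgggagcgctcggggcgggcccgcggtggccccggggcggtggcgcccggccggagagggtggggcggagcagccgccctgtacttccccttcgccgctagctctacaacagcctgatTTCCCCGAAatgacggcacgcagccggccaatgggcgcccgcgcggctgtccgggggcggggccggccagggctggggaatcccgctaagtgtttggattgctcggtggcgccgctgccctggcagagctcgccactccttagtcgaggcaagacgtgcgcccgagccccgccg
SAMD9L, chr7:93148336-93148635, minus strand: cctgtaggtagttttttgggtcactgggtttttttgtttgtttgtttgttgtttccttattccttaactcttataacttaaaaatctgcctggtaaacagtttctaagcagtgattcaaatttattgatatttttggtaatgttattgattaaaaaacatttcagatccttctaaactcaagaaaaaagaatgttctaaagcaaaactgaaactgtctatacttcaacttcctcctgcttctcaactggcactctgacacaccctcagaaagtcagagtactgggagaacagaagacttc
IFI44, chr1:78649539-78649838, plus strand: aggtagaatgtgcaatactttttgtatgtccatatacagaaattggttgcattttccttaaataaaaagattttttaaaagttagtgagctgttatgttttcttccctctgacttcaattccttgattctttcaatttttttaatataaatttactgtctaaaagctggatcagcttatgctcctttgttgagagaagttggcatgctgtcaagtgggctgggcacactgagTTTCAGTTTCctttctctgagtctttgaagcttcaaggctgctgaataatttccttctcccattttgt
TRIM25, chr17:56914000-56914299, minus strand: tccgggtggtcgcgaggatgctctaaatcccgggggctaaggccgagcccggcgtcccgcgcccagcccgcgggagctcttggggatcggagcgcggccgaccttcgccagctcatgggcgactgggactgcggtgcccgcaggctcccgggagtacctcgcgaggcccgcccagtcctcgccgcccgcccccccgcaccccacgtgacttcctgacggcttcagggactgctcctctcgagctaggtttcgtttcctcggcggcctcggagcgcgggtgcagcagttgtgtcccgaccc

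IFIT3, ISG15, IRF1 and SAMD9L were called higher in all 4 guide groups, and IFI44 and TRIM25 lower in all 4. The IFIT3 window holds 2 ISRE cores, beginning 156 and 122 bases before the start. In the ISG15 window 2 overlapping ISRE cores begin 113 and 107 bases before the start. A GAS core 124 bases before the start is the only match in the IRF1 window, and the SAMD9L window holds neither motif. The IFI44 window holds 1 ISRE core 18 bases before the start, and the TRIM25 window holds neither motif. In single guide groups 7.72% to 40.9% of all genes tested were called higher and 13.2% to 23.1% lower. Of the 9 members higher in all 4 guide groups, 8 had a window and 6 of these held an ISRE core. Of the 4 members lower in all 4 groups, all had a window and 3 held one. The ISRE core was therefore present on both sides in the guide groups. At 6 h of BRM014 in KOPT-K1, 5 of 23 tested members with the core were higher and 10 lower, and without it 8 of 12 and 1. In CCRF-CEM these counts were 2 and 14 with it and 1 and 3 without, and in TALL-1 6 and 14, and 2 and 5. Jurkat had 4 and 9 of 22 with it, and 1 and 6 of 12 without. Of all genes 22.9% to 28.9% were called higher and 15.2% to 20.9% lower in these 4 comparisons. A match in these letters is a description, not a bound site.

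Depth was about 29674200 to 47932900 reads in Jurkat libraries and 19717400 to 27037600 in the other lines, as recovered from the TPM values. Per the labels' protocols the Jurkat kit did not keep strand and the kit for the other lines did, so Jurkat reads of genes that overlap on opposite strands could not be told apart. Whether the counting used strand in the other lines is not given. The labels call the 3 libraries of a group biological replicates without saying what was separate, so p-values measure the spread between these libraries, which may be technical. In bulk RNA, fewer cells of a type and less RNA per cell cannot be told apart. All 11 T lineage markers examined reached 1 TPM in CCRF-CEM and KOPT-K1, against 10 in Jurkat and 9 in TALL-1, whereas none of 3 B cell markers did in any line and their summed level was at most 1.16 TPM in any library. ARID1A averaged 83.1 ± 3.38 TPM in gARID1A, against 94.4 ± 0.698 TPM in gAAVS1, and ARID1B averaged 11.9 ± 0.994 TPM in gARID1A_1B, against 22.7 ± 0.52 TPM in gAAVS1 (SD, n = 3 each). ARID1A averaged 101 ± 5.06 TPM in gARID1A_1B. SMARCA4 averaged 44.2 ± 1.63 TPM in gSMARCA4 and 49.9 ± 2.35 TPM in gSMARCA4_A2, against 97.5 ± 2.44 TPM in gAAVS1 (SD, n = 3 each). SMARCA2 averaged 22.4 ± 0.287 TPM in gSMARCA4_A2, against 21.8 ± 0.932 TPM in gAAVS1, so neither ARID1A in gARID1A_1B nor SMARCA2 in gSMARCA4_A2 was lower in mRNA, which does not measure protein.

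Most members had a measurable level with no treatment. In the Jurkat controls, over 9 libraries, 1 member had a median of at least 100 TPM, 20 lay between 10 and 100, 15 between 1 and 10, and 9 were below 1 TPM. ADAR, which edits double-stranded RNA, was the highest, between 122 and 152 TPM. IFITM1, which blocks viral entry at the membrane, was the highest in CCRF-CEM in DMSO, between 878 and 1168 TPM, but lay between 33.9 and 52.3 TPM in the Jurkat controls. Levels of Jurkat and the other lines come from separately made tables with different kits, so they are given side by side without a test.

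In every comparison with a control some members were called higher and others lower, at an adjusted p under 0.05 in limma over all genes. Fold changes are differences of log2(TPM + 1), which understate changes of low genes. Among the guide groups, gARID1A had 12 members higher and 8 lower of 41, against 7.72% and 13.2% of all genes tested. In gARID1A_1B 19 were higher and 9 lower, against 17% and 23.1% of all genes. In gSMARCA4 21 were higher and 5 lower, against 25.1% and 15.8% of all genes. In gSMARCA4_A2 19 were higher and 11 lower, against 40.9% and 21.1% of all genes. The median log2 difference of members was -0.03, 0.13, 0.26 and 0.21 in gARID1A, gARID1A_1B, gSMARCA4 and gSMARCA4_A2, beside -0.03, -0.03, 0.04 and 0.11 over all genes tested. The 4 guide groups share the gAAVS1 libraries, so their calls are not independent of each other.

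BRM014 for 6 h had fewer members higher than lower in Jurkat, CCRF-CEM and TALL-1. In Jurkat 6 were higher and 19 lower of 41, against 26.8% and 20.7% of all genes. In CCRF-CEM 4 were higher and 20 lower of 44, against 28.9% and 20.9% of all genes. In TALL-1 12 were higher and 21 lower, against 26.6% and 19.3% of all genes. KOPT-K1 had 17 higher and 12 lower, against 22.9% and 15.2% of all genes. After 8 d in Jurkat 16 were higher and 12 lower, against 36.9% and 23% of all genes. The median log2 difference of members was -0.20, -0.17, -0.14 and 0.11 at 6 h in Jurkat, CCRF-CEM, TALL-1 and KOPT-K1, and -0.05 at 8 d in Jurkat, beside 0.03 to 0.08 over all genes.

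**Figure D1:**
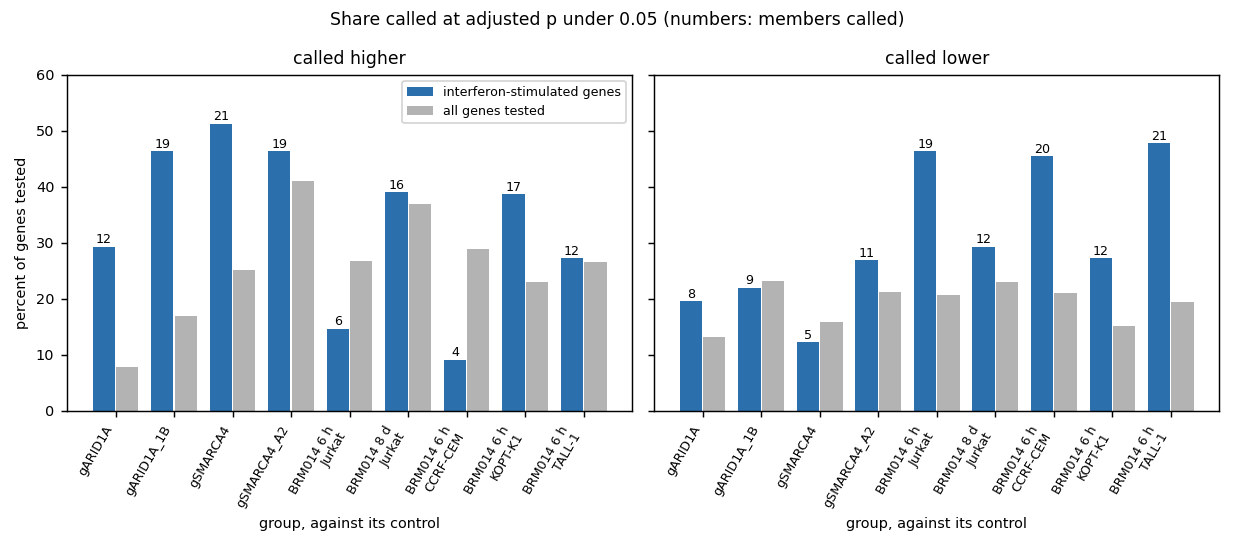
Percent of genes tested that were called higher (left) and lower (right) in each group against its control, for interferon-stimulated genes (blue, with their number) and for all genes tested (grey). At 6 h the blue bars for lower calls stand above the grey ones in all 4 lines, and those for higher calls are below the grey ones in Jurkat and CCRF-CEM. In gARID1A, gARID1A_1B and gSMARCA4 a larger share of members than of all genes was called higher.

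The set did not move as a block, and a few members kept 1 direction throughout. TRIM25, IFI44 and HERC5 were called lower in all 9 comparisons with a control, and EIF2AK2 was lower in 8 of 9 and was not called in KOPT-K1. Some of these calls rest on single libraries: HERC5 in KOPT-K1 missed the threshold without BRM014 replicate 1 or 2 or DMSO replicate 2 or 3 (limma adjusted p = 0.0675 to 0.127). IFI44 in KOPT-K1 missed it without BRM014 replicate 1 or 2 or DMSO replicate 1 or 3 (0.0501 to 0.0612), and EIF2AK2 in gSMARCA4 without gAAVS1 replicate 2 or gSMARCA4 replicate 1 (0.0513 and 0.0558). STAT2 and IFIT2 were called higher in 8 of 9, with gARID1A the exception for STAT2 and CCRF-CEM the exception for IFIT2. CCRF-CEM held at most 0.567 TPM of IFIT2 in any library. IFIT1, IFIT3 and DDX60 were higher in 7 of 9 and lower in none. In single comparisons 7.72% to 40.9% of all genes were called higher and 13.2% to 23.1% lower. The share of all genes called alike across comparisons is not given here. IRF1, OAS3, ISG15, IFIH1, SAMD9L and PARP12 were among the members called in both directions, depending on the comparison.

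**Figure D2:**
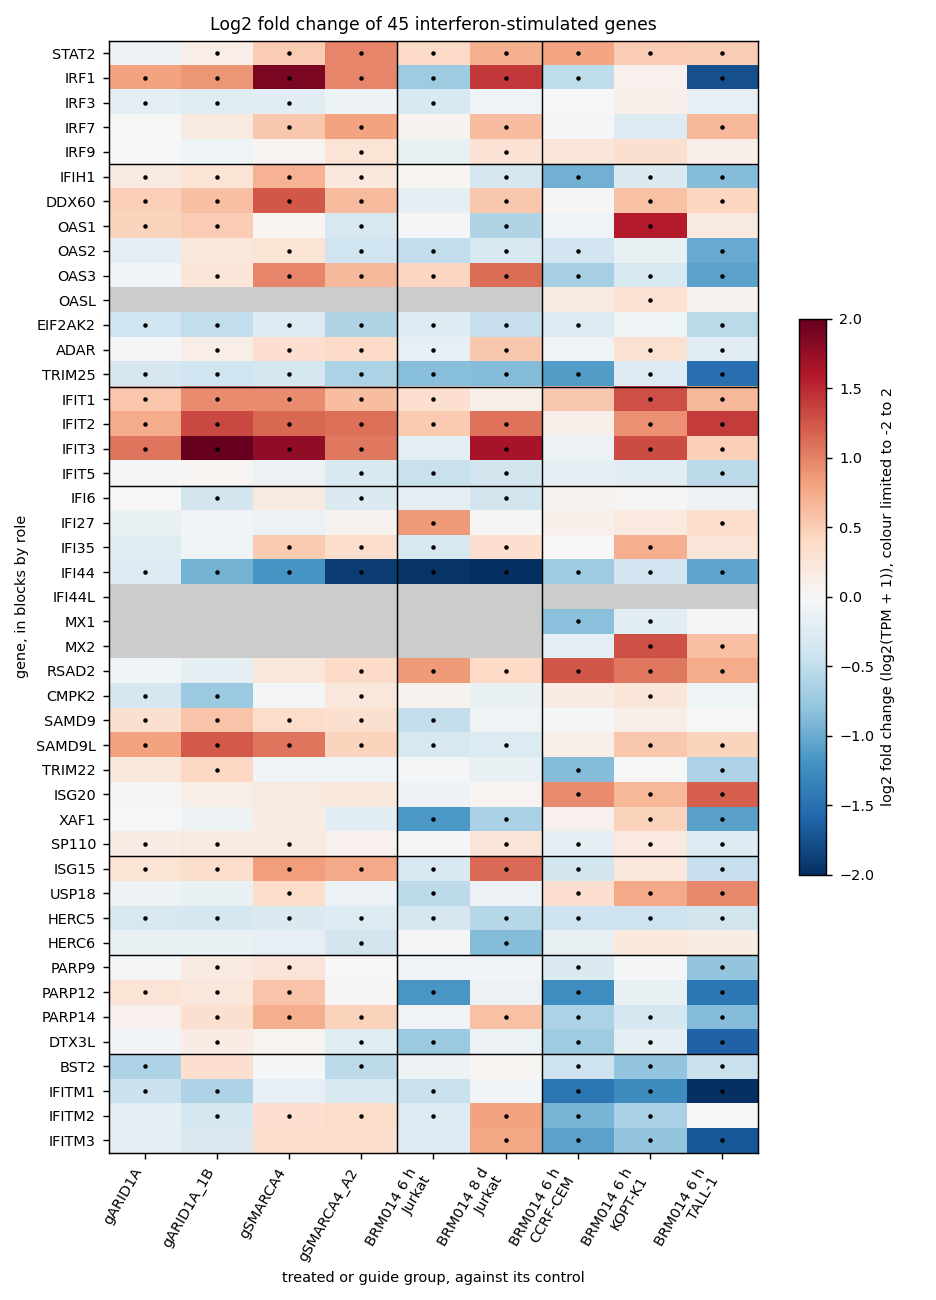
Log2 fold change on the log2(TPM + 1) scale of the 45 genes (rows, in blocks by role) in 9 groups against their controls (columns), with the colour limited to -2 to 2, black points for adjusted p under 0.05 and grey for genes not tested. TRIM25, IFI44 and HERC5 are blue in every column, and STAT2 and the IFIT1 to IFIT3 rows are red in most.

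Among the signalling and transcription factors, IRF1 moved the most, and in Jurkat its direction turned between times. Of the 5 members of this group 4 were called higher in gSMARCA4_A2, all but IRF3, where 40.9% of all genes tested were called higher. IRF1 is a transcription factor that drives many antiviral genes and is itself induced by interferon. It had 78.3, 66.8 and 67.2 TPM in gSMARCA4, against 18.2, 19.1 and 17.9 TPM in gAAVS1 (log2 difference 1.89 ± 0.08 SE, limma adjusted p = 4.97e-14). The other guide groups lay between these, at 30.8 to 35.2 TPM in gARID1A, 33.7 to 36.3 in gARID1A_1B and 35.8 to 38.6 in gSMARCA4_A2. No library of any guide group overlapped gAAVS1. After 8 d of BRM014 IRF1 had 39.0, 33.0 and 38.1 TPM, against 11.8, 13.8 and 14.0 TPM in DMSO (1.41 ± 0.08). After 6 h it had 10.2, 12.3 and 10.2 TPM, against 18.0, 19.1 and 18.3 TPM in DMSO (-0.72 ± 0.08), so Jurkat cells had less IRF1 at 6 h and more at 8 d, each time without overlap. The largest fall of IRF1 was in TALL-1, with 19.3, 19.8 and 19.1 TPM in BRM014, against 68.6, 65.6 and 68.7 TPM in DMSO (-1.75 ± 0.04, limma adjusted p = 8.89e-13). In CCRF-CEM it fell by 0.50 on the log2 scale, and in KOPT-K1 it had 116, 126 and 120 TPM in BRM014, against 115, 116 and 110 TPM in DMSO, with no call. Exons of C5orf56 on the opposite strand cover 15.3% of IRF1 exon bases in GENCODE, which bears on the Jurkat values.

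STAT2, a subunit of the ISRE-binding complex, was higher in BRM014 in all 4 lines. It had 49.96, 48.2 and 45.0 TPM in gSMARCA4_A2, against 23.4, 24.7 and 22.9 TPM in gAAVS1 (0.98 ± 0.045). In gSMARCA4 the 3 libraries lay at 34.7, 33.1 and 34.4 TPM, above gAAVS1 and below gSMARCA4_A2. CCRF-CEM had 17.6, 16.7 and 18.8 TPM in BRM014, against 9.63, 8.97 and 11.0 TPM in DMSO (0.79 ± 0.09). At 8 d in Jurkat it rose by 0.72, and at 6 h by 0.38, with no overlap between BRM014 and DMSO libraries at either time. IRF7, a factor of the later interferon response, stayed under 5 TPM in Jurkat, at 3.92 to 4.64 TPM in gSMARCA4_A2 and 1.98 to 1.99 TPM in gAAVS1. In TALL-1 it had 11.2, 12.7 and 12.0 TPM in BRM014, against 7.50, 7.08 and 7.04 TPM in DMSO (0.66 ± 0.18). IRF3, which responds to sensors of viral nucleic acid, was lower in gARID1A, gARID1A_1B, gSMARCA4 and 6 h BRM014 in Jurkat, by at most 0.31, and exons of BCL2L12 on the opposite strand cover 20.1% of its own. IRF9 was called higher in gSMARCA4_A2 and at 8 d, but AL136295.5 on the same strand covers 93.5% of its exon bases, so its reads cannot be told apart from that gene's.

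The double-stranded RNA sensors and enzymes split, with TRIM25 and EIF2AK2 lower and DDX60 higher. Of 8 tested 5 were higher and 2 lower in gSMARCA4, against 25.1% and 15.8% of all genes, and of 9 tested 1 was higher and 6 lower in TALL-1, against 26.6% and 19.3%. TRIM25 is a ubiquitin ligase that helps the sensor RIG-I, and EIF2AK2 is the kinase PKR, which stops translation when it binds double-stranded RNA. TRIM25 had 36.9, 34.7 and 35.9 TPM after 6 h of BRM014 in Jurkat, against 66.3, 63.1 and 67.0 TPM in DMSO (-0.85 ± 0.04, limma adjusted p = 4.84e-13). After 8 d it had 33.6, 36.4 and 33.4 TPM, against 65.1, 62.3 and 62.9 TPM in DMSO (-0.86 ± 0.04). The effects at 8 d and 6 h differed by -0.01 ± 0.06, which was not called. gSMARCA4_A2 libraries held 38.5, 40.8 and 38.5 TPM, against 60.8, 64.2 and 60.2 TPM in gAAVS1 (-0.64 ± 0.04), and the other guide groups lay from 45.5 to 50.6 TPM. In TALL-1 it had 29.2, 27.6 and 26.9 TPM in BRM014, against 82.2, 86.1 and 75.1 TPM in DMSO (-1.51 ± 0.07), and in CCRF-CEM 36.8, 35.4 and 44.3 TPM, against 79.3, 85.8 and 89.1 TPM (-1.11 ± 0.07). KOPT-K1 had the smallest change, 64.1, 61.1 and 63.2 TPM in BRM014, against 74.6, 76.9 and 74.0 TPM in DMSO (-0.26 ± 0.07). In none of these 9 comparisons did the TRIM25 libraries of both groups overlap.

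EIF2AK2 had 16.9, 15.8 and 15.2 TPM in gSMARCA4_A2, against 25.4, 25.6 and 23.0 TPM in gAAVS1 (-0.60 ± 0.08). TALL-1 had 16.7, 18.4 and 18.1 TPM in BRM014, against 26.1, 26.1 and 26.4 TPM in DMSO (-0.54 ± 0.10). DDX60, a helicase that assists viral RNA sensing, had 8.19, 8.57 and 8.16 TPM in gSMARCA4, against 3.21, 2.98 and 2.69 TPM in gAAVS1 (1.24 ± 0.10). All 4 guide groups lay above gAAVS1 for DDX60, as did BRM014 above DMSO in KOPT-K1, at 12.1 to 13.4 TPM against 7.78 to 8.54 TPM. IFIH1, the sensor MDA5 of long double-stranded RNA, was higher in the 4 guide groups, most in gSMARCA4 at 9.92 to 10.8 TPM against 5.63 to 6.53 TPM in gAAVS1 (0.69 ± 0.06). With BRM014 it was lower in the 3 other lines, as in TALL-1 at 5.08, 4.96 and 4.73 TPM, against 10.2, 9.71 and 9.61 TPM in DMSO (-0.87 ± 0.09), and lower at 8 d in Jurkat (-0.33 ± 0.06).

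The OAS enzymes make the messenger that activates RNase L, and they went separate ways. OAS3 had 18.8, 18.0 and 17.5 TPM at 8 d of BRM014, against 8.46, 7.92 and 7.07 TPM in DMSO (1.12 ± 0.07). It had 19.4, 19.6 and 18.9 TPM in gSMARCA4, against 9.77, 9.12 and 9.04 TPM in gAAVS1 (0.98 ± 0.07). In TALL-1 the direction was opposite, with 7.42, 8.08 and 8.27 TPM in BRM014, against 16.5, 17.4 and 19.4 TPM in DMSO (-1.07 ± 0.10). OAS1 had 7.42, 8.94 and 8.60 TPM in BRM014 in KOPT-K1, against 2.18, 1.81 and 2.31 TPM in DMSO (1.59 ± 0.14). This was the largest difference of log2(TPM + 1) among members in that line, a scale that understates changes of low genes. Jurkat libraries of the BRM014 and DMSO groups had at most 1.09 TPM of OAS1. OAS2 was lower in TALL-1 by 1.01, and ADAR rose at 8 d to 191, 197 and 192 TPM, against 126, 131 and 142 TPM in DMSO (0.54 ± 0.05).

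The IFIT family binds foreign RNA ends, and IFIT1 to IFIT3 were higher in the guide groups with no library overlapping gAAVS1. IFIT3 had 10.5, 9.08 and 8.71 TPM in gARID1A_1B, against 0.823, 0.750 and 0.476 TPM in gAAVS1 (2.63 ± 0.10, limma adjusted p = 9.92e-15), the largest rise of any member in a guide group. It had 5.01, 4.82 and 4.32 TPM in gSMARCA4 (1.77 ± 0.10), 2.67, 2.43 and 2.33 TPM in gSMARCA4_A2 (1.05 ± 0.10) and 3.18, 2.15 and 2.29 TPM in gARID1A (1.07 ± 0.10). Targeting both ARID1 genes thus gave the most IFIT3, and targeting both ATPases gave less than SMARCA4 guides alone. At 8 d of BRM014 it had 2.77, 2.97 and 2.98 TPM, against 0.202, 0.200 and 0.337 TPM in DMSO (1.65 ± 0.10). At 6 h it was at 0.174 to 0.271 TPM, against 0.258 to 0.461 TPM in DMSO, with no call. KOPT-K1 had 29.4, 33.2 and 30.8 TPM after 6 h of BRM014, against 10.9, 11.3 and 13.8 TPM in DMSO (1.31 ± 0.17), while CCRF-CEM stayed under 0.5 TPM in both groups.

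IFIT2 had 7.87, 8.41 and 8.26 TPM in gARID1A_1B, 7.88, 7.08 and 6.63 TPM in gSMARCA4 and 7.42, 6.91 and 6.41 TPM in gSMARCA4_A2, against 2.91, 2.44 and 2.67 TPM in gAAVS1 (1.32 ± 0.08, 1.16 ± 0.08 and 1.11 ± 0.08 in that order). Unlike IFIT3 it was also called higher at 6 h in Jurkat, at 3.00, 3.10 and 2.85 TPM in BRM014, against 1.60, 2.14 and 1.61 TPM in DMSO (0.52 ± 0.08). TALL-1 had 4.38, 3.94 and 4.51 TPM, against 0.844, 1.39 and 0.807 TPM in DMSO (1.40 ± 0.14). IFIT1 stayed under 4 TPM in Jurkat and was higher in all 4 guide groups, by 0.55 to 0.95. IFIT5, the fourth member of the family, rose in none of the 9 comparisons and was lower in gSMARCA4_A2 (-0.31 ± 0.07), at both BRM014 times in Jurkat and in TALL-1.

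**Figure D3:**
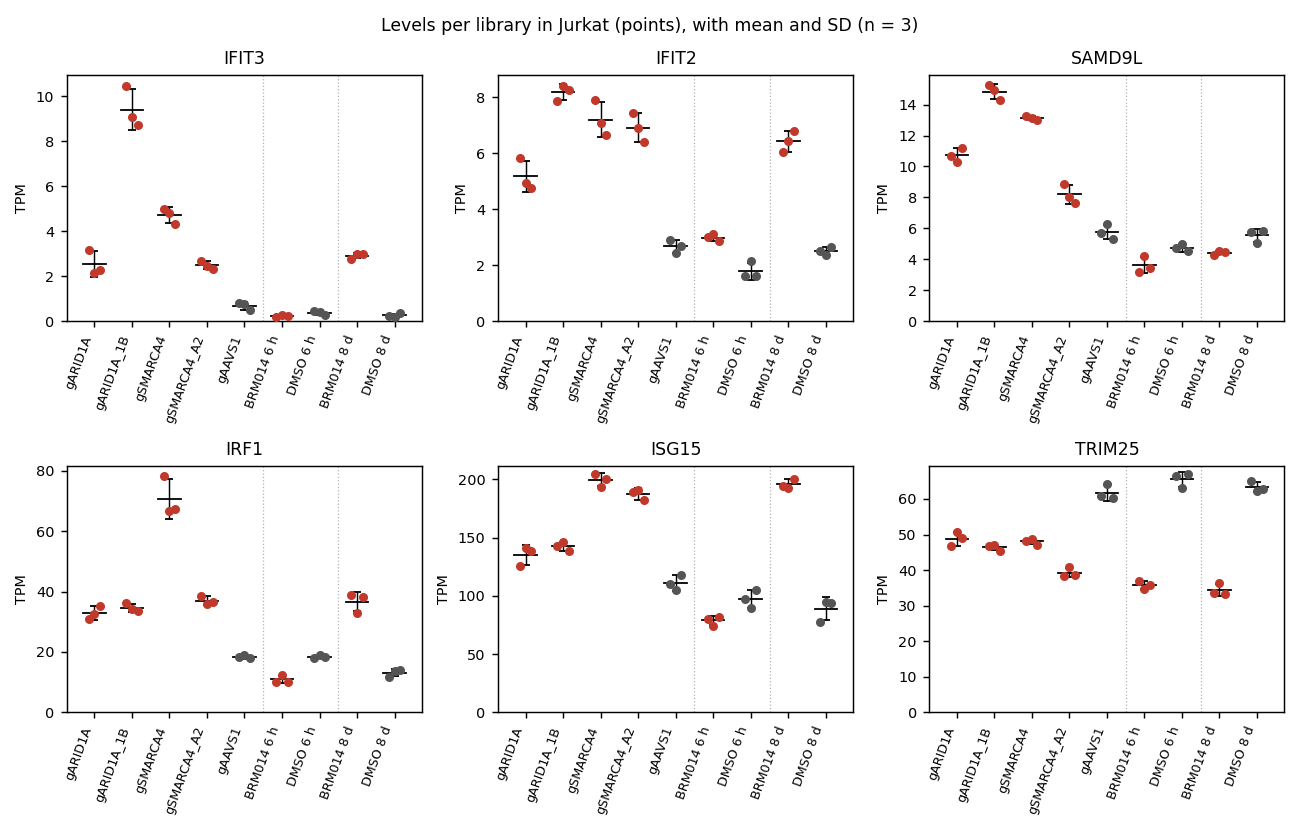
TPM of 6 members in each Jurkat library (points, red for guide and BRM014 groups, grey for gAAVS1 and DMSO), with the mean and SD of 3 libraries as bars and dotted lines between the experiments. IFIT3, IFIT2, SAMD9L, IRF1 and ISG15 lie above gAAVS1 in all 4 guide groups, IRF1 is below DMSO at 6 h and above it at 8 d, and TRIM25 lies under its control in every group.

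Among the other antiviral effectors IFI44 fell the most. IFI44, a protein of unclear mechanism that limits viral replication, had 0.256, 0.441 and 0.305 TPM after 6 h of BRM014 in Jurkat, against 3.64, 5.09 and 4.00 TPM in DMSO (-1.97 ± 0.09). After 8 d it had 0.0207, 0.0235 and 0.0495 TPM, from 2, 2 and 4 reads, against 3.66, 3.91 and 4.44 TPM in DMSO, from 288, 355 and 359 reads (-2.28 ± 0.09). gSMARCA4_A2 held 0.566, 0.451 and 0.607 TPM, against 4.83, 4.87 and 4.47 TPM in gAAVS1 (-1.89 ± 0.09), while gSMARCA4 had 1.39 to 1.62 TPM, gARID1A_1B 1.71 to 2.13 TPM and gARID1A 3.62 to 3.82 TPM. IFI44 thus fell in every guide group, least in gARID1A and most in gSMARCA4_A2. It lies outside the rule for naming most members, which asks for 5 TPM, and was picked after its values were seen. Its neighbour IFI44L stayed at or under 0.193 TPM in Jurkat. In TALL-1 IFI44 had 10.7, 10.7 and 11.6 TPM in BRM014, against 24.1, 23.9 and 23.5 TPM in DMSO (-1.05 ± 0.12).

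SAMD9L and its neighbour SAMD9 restrict poxviruses and slow growth. SAMD9L had 15.3, 14.9 and 14.3 TPM in gARID1A_1B, 10.7, 10.3 and 11.2 TPM in gARID1A, 13.3, 13.2 and 13.0 TPM in gSMARCA4 and 8.88, 8.05 and 7.66 TPM in gSMARCA4_A2, against 5.69, 6.26 and 5.33 TPM in gAAVS1. These are log2 differences of 1.23, 0.80, 1.07 and 0.44 in that order (SE 0.07 each). Under BRM014 in Jurkat it was lower, with 4.29, 4.52 and 4.46 TPM at 8 d, against 5.74, 5.04 and 5.84 TPM in DMSO (-0.27 ± 0.07). In Jurkat the guide groups and the inhibitor thus stood on opposite sides of their controls for SAMD9L. With BRM014 at 6 h it was also lower in Jurkat (-0.32) but higher in KOPT-K1 (0.53) and TALL-1 (0.44), and it was not called in CCRF-CEM. RSAD2, the antiviral radical SAM enzyme viperin, was higher in BRM014 at 6 h in all 4 lines, as in KOPT-K1 with 29.4, 32.3 and 30.9 TPM, against 13.5, 14.2 and 15.5 TPM in DMSO (1.05 ± 0.155). In Jurkat at 6 h it had 11.5, 15.2 and 12.6 TPM, against 6.2, 7.46 and 6.75 TPM in DMSO (0.85 ± 0.10). CMPK2, which lies beside RSAD2 and makes nucleotide precursors, was lower in gARID1A_1B, at 13.3, 12.4 and 11.6 TPM, against 22.2, 21.6 and 20.5 TPM in gAAVS1 (-0.74 ± 0.09).

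XAF1, a pro-apoptotic interferon target, had 4.59, 6.92 and 4.42 TPM at 6 h of BRM014 in Jurkat, against 11.4, 16.5 and 11.0 TPM in DMSO (-1.15 ± 0.15). PRAL on the opposite strand covers 69.9% of XAF1 exon bases, so this Jurkat value may hold reads of both. In TALL-1, whose kit kept strand, XAF1 had 3.54, 4.79 and 3.71 TPM in BRM014, against 8.81, 10.9 and 9.09 TPM in DMSO (-1.08 ± 0.11). KOPT-K1 had more XAF1 in BRM014 (0.46 ± 0.11). Whether the counting used strand in these lines is not given, so PRAL reads may be included there too. ISG20, an RNA exonuclease, was higher in the 3 other lines, with 13.0, 11.1 and 12.5 TPM in BRM014 in TALL-1, against 5.05, 4.75 and 4.5 TPM in DMSO (1.19 ± 0.18). MX1 and MX2, GTPases that trap viral capsids, were nearly silent in Jurkat, where MX1 had at most 0.031 TPM and MX2 at most 1.10 TPM. In CCRF-CEM MX1 had 8.44, 8.25 and 7.71 TPM in BRM014, against 15.1, 15.1 and 15.5 TPM in DMSO (-0.83 ± 0.06). MX2 had 3.74, 4.22 and 4.11 TPM in BRM014 in KOPT-K1, against 0.897, 1.37 and 1.01 TPM in DMSO (1.27 ± 0.12).

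In the ISG15 system the ubiquitin-like protein ISG15 and its ligase HERC5 parted in the guide groups and at 8 d in Jurkat. ISG15 had 194, 192 and 201 TPM at 8 d of BRM014, against 77.5, 95.1 and 94.2 TPM in DMSO (1.14 ± 0.07, limma adjusted p = 5.33e-12). It had 205, 194 and 201 TPM in gSMARCA4 and 189, 191 and 182 TPM in gSMARCA4_A2, against 110, 105 and 118 TPM in gAAVS1 (0.84 ± 0.07 and 0.75 ± 0.07). At 6 h in Jurkat ISG15 was lower instead, at 80.2, 74.3 and 82.1 TPM, against 97.2, 89.5 and 105 TPM in DMSO (-0.30 ± 0.07). HERC5 was lower there as well (-0.34 ± 0.07). In TALL-1 at 6 h both ISG15 (-0.46 ± 0.13) and HERC5 (-0.37 ± 0.14) were lower. HERC5 had 9.84, 9.47 and 8.99 TPM at 8 d, against 16.1, 14.1 and 13.2 TPM in DMSO (-0.57 ± 0.07), and it was lower in the 4 guide groups by 0.26 to 0.35. HERC6, its near relative, was lower at 8 d, at 2.86, 3.02 and 2.90 TPM, against 6.82, 6.02 and 5.78 TPM in DMSO (-0.87 ± 0.08). USP18, which removes ISG15 and dampens the receptor, was higher in the 3 other lines, as in KOPT-K1 at 43.9, 46.7 and 44.6 TPM, against 24.3, 27.9 and 26.8 TPM in DMSO (0.75 ± 0.10), but lower in Jurkat at 6 h (-0.53 ± 0.07). The USP18 call in CCRF-CEM (0.34) missed the threshold with its groups fitted alone (limma adjusted p = 0.0521), without BRM014 replicate 3 (0.0619) and without DMSO replicate 2 (0.0645).

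PARP9, PARP12 and PARP14 attach or read ADP-ribose, and DTX3L is the ubiquitin ligase partner of PARP9. At 6 h PARP12 was lower in Jurkat, CCRF-CEM and TALL-1, and DTX3L in all 4 lines. All 4 genes of this group were lower in CCRF-CEM and in TALL-1, where 20.9% and 19.3% of all genes were. PARP12 had 6.57, 7.24 and 6.53 TPM in BRM014 in Jurkat, against 15.8, 18.0 and 15.4 TPM in DMSO (-1.16 ± 0.06). In TALL-1 it had 7.79, 8.43 and 7.26 TPM, against 23.9, 24.3 and 20.9 TPM in DMSO (-1.44 ± 0.08), and in CCRF-CEM it fell by 1.24 on the log2 scale. DTX3L had 5.30, 5.43 and 4.81 TPM in BRM014 in TALL-1, against 18.9, 17.4 and 17.5 TPM in DMSO (-1.61 ± 0.05). At 8 d in Jurkat PARP12 was not called, at 12.6 to 13.2 TPM against 13.8 to 14.5 TPM in DMSO. In gSMARCA4 it was higher, at 26.5, 26.9 and 25.9 TPM, against 16.0, 18.7 and 18.1 TPM in gAAVS1 (0.56 ± 0.06), and all 4 genes of this group were called higher in gARID1A_1B, by 0.15 to 0.32.

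The membrane factors fell most in the 3 other lines, with 4 of 4 lower in CCRF-CEM and KOPT-K1 and 3 of 4 in TALL-1, against 20.9%, 15.2% and 19.3% of all genes in that order. The KOPT-K1 count includes IFITM2, with only 0, 0 and 2 reads in BRM014, against 6, 4 and 3 reads in DMSO. It also includes IFITM3, whose libraries overlapped, at 20.8, 24.7 and 20.7 TPM in BRM014, against 48.1, 24.2 and 49.3 TPM in DMSO. IFITM1 had 42.7, 46.8 and 34.0 TPM in BRM014 in TALL-1, against 284, 279 and 222 TPM in DMSO (-2.64 ± 0.14, limma adjusted p = 1.1e-09). CCRF-CEM had 337, 418 and 386 TPM, against 1083, 1168 and 878 TPM in DMSO (-1.45 ± 0.14), and KOPT-K1 217, 269 and 212 TPM, against 548, 597 and 524 TPM in DMSO (-1.26 ± 0.14). BRM014 and DMSO libraries did not overlap in these lines, whereas in Jurkat at 6 h they did, at 22.9, 34.0 and 29.6 TPM against 33.9, 48.1 and 37.1 TPM (-0.45 ± 0.15, limma adjusted p = 0.0197). IFITM3 had 5.11, 4.54 and 3.58 TPM in TALL-1, against 11.0, 20.4 and 19.7 TPM in DMSO (-1.70 ± 0.25). In Jurkat IFITM2 rose at 8 d, with 104, 86.5 and 104 TPM, against 60.2, 55.8 and 50.5 TPM in DMSO (0.81 ± 0.10). IFITM2 and IFITM3 are near-identical copies whose reads the counting may have split, and AC136475.5 on the opposite strand covers 23.7% of IFITM3 exon bases. BST2, tetherin, which holds budding virus at the surface, was lower in the 3 other lines, most in KOPT-K1 at 92.7, 93.8 and 85.9 TPM, against 162, 162 and 150 TPM in DMSO (-0.79 ± 0.11), and had at most 2.61 TPM in Jurkat.

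**Figure D4:**
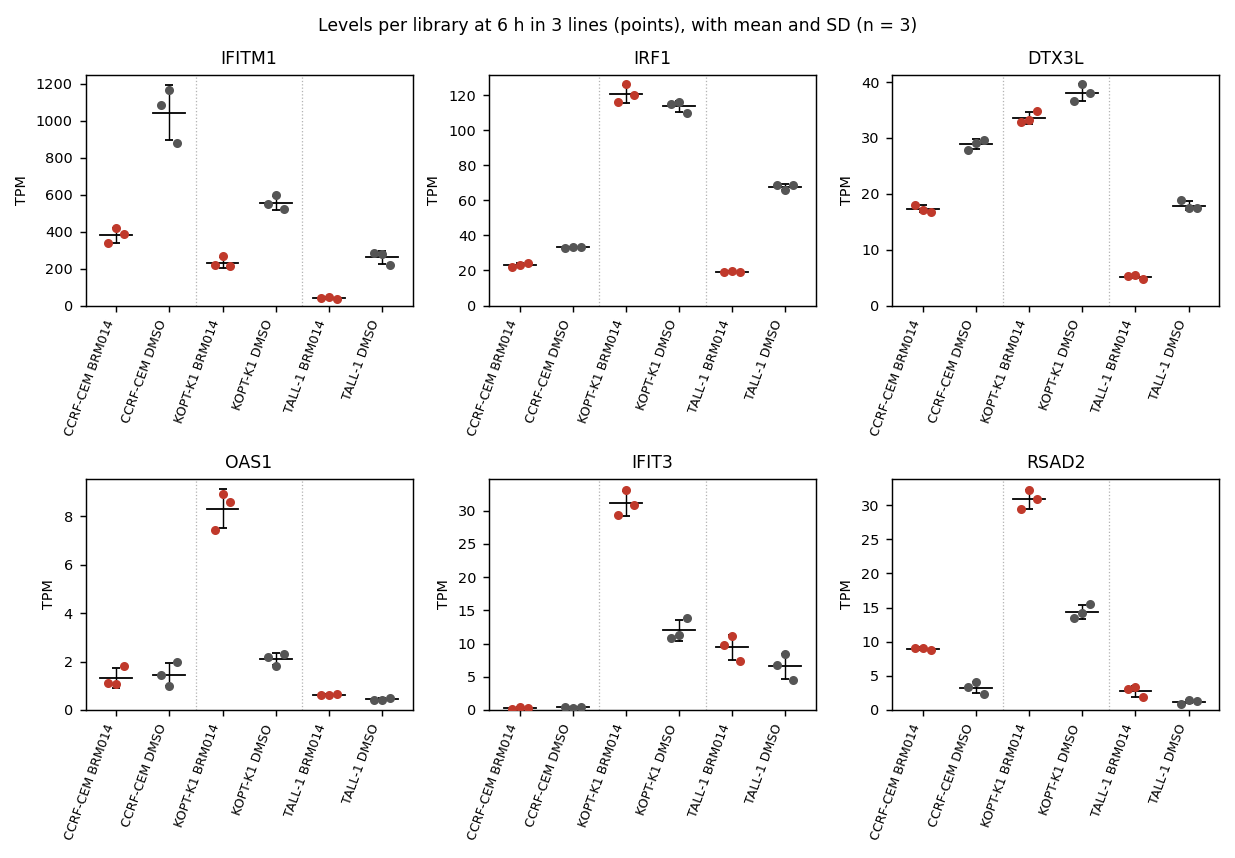
TPM of 6 members at 6 h in each library of CCRF-CEM, KOPT-K1 and TALL-1 (points, red for BRM014, grey for DMSO), with the mean and SD of 3 libraries as bars. IFITM1 lies under DMSO and RSAD2 above DMSO in each line, IRF1 is lower in CCRF-CEM and TALL-1 alone, and OAS1 reaches 7.42 to 8.94 TPM in KOPT-K1.

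Groups with guides to 2 genes were compared with those to 1. In gARID1A_1B against gARID1A 13 members were higher and 3 lower, against 10.3% and 10.6% of all genes, led by IFIT3 (1.56 ± 0.10), IFIT2 (0.58 ± 0.08) and SAMD9L (0.43 ± 0.07). In gSMARCA4_A2 against gSMARCA4 the balance was the other way, with 4 higher and 20 lower, against 26.5% and 12.3% of all genes. IRF1 was lower there by 0.92, SAMD9L by 0.62, DDX60 by 0.60 and PARP12 by 0.54, while STAT2 was higher by 0.47. The median of members was -0.20, beside 0.07 over all genes. Without gSMARCA4_A2 replicate 1 the higher count was 1, without replicate 2 it was 2, and under median-ratio rescaling it was 2. In gSMARCA4_A2 against gARID1A_1B 12 were higher and 16 lower, against 43.2% and 14% of all genes, with IFIT3 lower by 1.58 and CMPK2 higher by 0.97. Rescaling by median ratios shifted the median of all genes by -0.11 in this last comparison.

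Differences between effects were fitted as contrasts. The BRM014 effect at 8 d minus that at 6 h in Jurkat was higher for 20 members and lower for 6, against 25.7% and 18.5% of all genes, with a median of 0.30 beside 0.03. IRF1 differed by 2.13 ± 0.11, IFIT3 by 1.82 ± 0.14 and ISG15 by 1.43 ± 0.10. Time in culture and days of DMSO differ between these groups as well, and each time had its own DMSO libraries. The effect of gSMARCA4_A2 minus that of BRM014 at 8 d was higher for 9 and lower for 5, against 9.7% and 7% of all genes, or 8 and 8 under median-ratio rescaling. SAMD9L (0.71 ± 0.10) and IFIH1 (0.55 ± 0.09) were the highest of these and IFIT3 (-0.60 ± 0.14) and OAS3 (-0.47 ± 0.11) the lowest. The effect of gARID1A_1B minus that of BRM014 at 8 d was higher for 15 and lower for 14, against 10.9% and 27.4% of all genes, or 18 and 11 under rescaling, from SAMD9L at 1.5 ± 0.10 to IFITM2 at -1.17 ± 0.14.

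**Figure D5:**
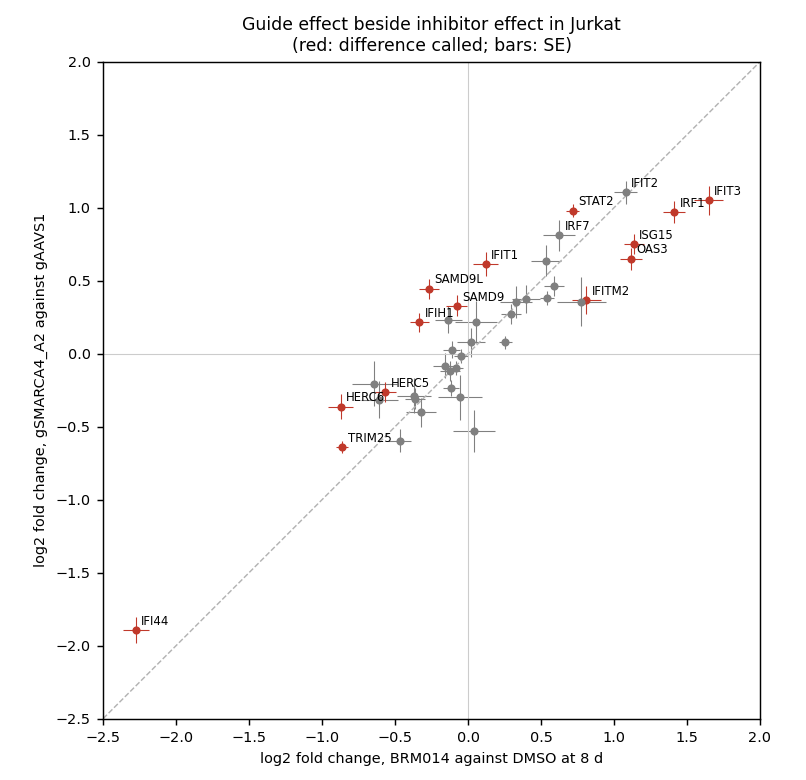
Log2 fold change of each tested member in gSMARCA4_A2 against gAAVS1 (vertical axis) and in BRM014 against DMSO at 8 d (horizontal axis), with SE bars, a dashed line of equal values and red for the 14 members whose difference was called. Of 41 members 23 were called the same way in both and 2, IFIH1 and SAMD9L, in opposite ways. Over all genes tested 40.9% and 36.9% were called higher in the guide group and at 8 d, and 21.1% and 23% lower. The share of all genes called the same way in both is not given here.

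Between lines, the BRM014 effect in TALL-1 minus that in KOPT-K1 was higher for 1 member and lower for 21, against 10.1% and 11.2% of all genes, with a median of -0.46 beside 0. IRF1 differed by -1.84 ± 0.06, DTX3L by -1.44 ± 0.07 and OAS1 by -1.42 ± 0.20, and IRF7 was the member with a higher effect in TALL-1. CCRF-CEM minus KOPT-K1 was higher for 0 and lower for 17 in limma on log2 values, against 8.62% and 9.72% of all genes, with 2 higher at an unadjusted p under 0.05 and 0 higher in limma-voom on recovered reads, with OAS1 at -1.67 ± 0.20 and PARP12 at -1.10 ± 0.11. TALL-1 minus CCRF-CEM was higher for 6 and lower for 7, against 9.85% and 10.5% of all genes, from IFIT2 at 1.31 ± 0.19 to IRF1 at -1.25 ± 0.06. IFIT2 had at most 0.567 TPM in CCRF-CEM, where a change could hardly show on this scale. These differences were fitted among the 3 lines of 1 table and not with Jurkat.

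Genes that carry the interferon signal were taken from a list of 16, all tested in Jurkat. In gARID1A, gARID1A_1B, gSMARCA4 and gSMARCA4_A2 the higher counts were 2, 5, 6 and 9 and the lower counts 4, 5, 6 and 4. With BRM014 in Jurkat 7 were higher and 6 lower at 6 h, and 8 and 4 at 8 d. Of 15 tested in CCRF-CEM, KOPT-K1 and TALL-1, higher counts were 10, 8 and 9, with 2 lower in each. In single comparisons 7.72% to 40.9% of all genes were called higher and 13.2% to 23.1% lower. SOCS1, which shuts the receptor kinases off, had 102, 121 and 107 TPM in gARID1A_1B, against 0.990, 1.72 and 1.36 TPM in gAAVS1 (5.57 ± 0.22). The other guide groups lay between 2.60 and 12.4 TPM of SOCS1. Of the 9 comparisons with a control it was called higher in 7, and it was lower at 6 h in Jurkat (-0.71 ± 0.22). JAK2, a kinase of the interferon gamma receptor, was higher in all but gARID1A, by 0.28 to 0.87. IFNAR2 was lower in the 4 guide groups (-0.47 to -0.86) and at 8 d (-0.88), while at 6 h it was called in no line. The phosphatase PTPN6 fell by 2.30 at 6 h in Jurkat, at a mean of 22.25 TPM in BRM014 against 112.5 TPM in DMSO. At 8 d it rose by 1.88, at 124.5 TPM against 33.09 TPM in DMSO. The DMSO levels of PTPN6 thus differed between the times as well, which was not tested. None of 9 interferon genes reached the filter, and their highest value in any library was 0.653 TPM, from 5 reads of IFNB1.

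Genes of antigen presentation, taken from a list of 26, include many that interferon gamma also raises. Of 20 tested in Jurkat 14 were higher in gSMARCA4 and 0 lower in limma (0 lower at an unadjusted p under 0.05), against 25.1% and 15.8% of all genes. In gARID1A_1B 11 were higher and 4 lower, against 17% and 23.1% of all genes. At 6 h of BRM014 in Jurkat 3 were higher and 10 lower, against 26.8% and 20.7% of all genes, and at 8 d 14 were higher and 4 lower, against 36.9% and 23%. In TALL-1 3 of 21 were higher and 12 lower, against 26.6% and 19.3% of all genes. GBP1, a GTPase that attacks vacuoles of pathogens, was higher in gARID1A (1.18), gARID1A_1B (1.5) and gSMARCA4 (1.10). At 6 h of BRM014 it was lower in Jurkat (-1.33) and TALL-1 (-1.43). The immunoproteasome subunit PSMB9 was higher in gSMARCA4 (0.75) and lower in TALL-1 (-1.27). HLA-E, a ligand of natural killer receptors, was higher in all 4 guide groups and at 8 d, by 0.39 to 1.54, and TAP2, a peptide transporter, was higher in all 9 comparisons.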

How the data were processed

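Counting and scaling were done by the authors: the deposited values are TPM per gene from poly(A) RNA, one column per library, and HISAT2 2.2.1, featureCounts 2.0.3, DESeq2 1.38.2 and hg38 are named in the submitters' processing notes, with no role or order given. Multiplying TPM by the length column gave whole reads within 0.01 for all values. Differences were fitted with limma 3.58.1 in R 4.3.3 on log2(TPM + 1), with all groups of a table in one fit and variances moderated with trend and robust options, for genes that reached 1 TPM in 3 or more libraries of their table (17936 genes in Jurkat and 16241 in the other lines). Adjusted p-values follow Benjamini and Hochberg over all genes, with a threshold of 0.05, in 18 comparisons. Of these only gARID1A against gAAVS1 and BRM014 against DMSO in CCRF-CEM were tested on simulated data. Alternatives were a pseudocount of 0.1, other filters, median-ratio rescaling, limma-voom on the recovered reads, a replicate block, fits of the compared groups alone and leaving out each library. The members and gene lists were chosen with earlier results of these data known. Members were named where called, without overlap and with 5 TPM in the higher group, up to 6 in each direction (4 in differences). IFI44, IFIT1 and SOCS1 were named after their values were seen. Other values outside this rule are given too, such as MX2 in KOPT-K1, under 5 TPM, and IFITM1 at 6 h in Jurkat, with overlap. Values of some genes outside the set are not reported here. Replicate numbers paired the libraries in CCRF-CEM, where same-numbered libraries deviated together (correlations 0.119, 0.286 and 0.447). Figures were drawn with matplotlib 3.10.9 in Python 3.11.15. Intervals from reads were not computed, so depth enters through the spread between libraries.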

Additional observations from a re-analysis of the deposited data

Results flagged for a closer look

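Differences between BRM014 effects, each tested as a contrast in limma over all genes, drew attention to the members below. Values are differences of log2(TPM + 1) fold changes, for the largest in each direction.

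In Jurkat the effect at 8 d minus that at 6 h was 2.13 for IRF1, 1.82 for IFIT3, 1.43 for ISG15 and 1.08 for IFITM2. It was -0.83 for HERC6, -0.83 for IFI27, -0.58 for OAS1 and -0.45 for RSAD2. IFI27 had 3.54, 3.76 and 4.10 TPM in BRM014 at 6 h, against 1.91, 1.63 and 1.48 TPM in DMSO, and at 8 d it had 1.28, 1.63 and 1.57 TPM, against 1.52, 1.16 and 1.71 TPM in DMSO. The OAS1 difference missed the threshold where the groups compared were fitted alone (limma adjusted p = 0.059).

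The effect in TALL-1 minus that in CCRF-CEM was 1.31 for IFIT2, 0.92 for IFITM2, 0.80 for MX1 and 0.79 for MX2. It was -1.25 for IRF1, -1.19 for IFITM1, -1.17 for XAF1 and -0.91 for DTX3L. CCRF-CEM held 0.274 to 0.567 TPM of IFIT2, from 8 to 18 reads, so a change there could hardly show on this scale. TALL-1 held at most 0.588 TPM of IFITM2 and at most 0.113 TPM of MX1, so their differences come from CCRF-CEM, and both missed the threshold in limma-voom on recovered reads (adjusted p = 0.606 and 0.359). The effect in TALL-1 minus that in KOPT-K1 was 0.92 for IRF7, -1.84 for IRF1, -1.54 for XAF1, -1.44 for DTX3L and -1.42 for OAS1. The effect in CCRF-CEM minus that in KOPT-K1 was -1.67 for OAS1, -1.45 for MX2, -1.43 for IFIT3 and -1.10 for PARP12. The IFIT3 difference missed the threshold in limma-voom (adjusted p = 0.0581).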

How the results depend on the processing

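Across 9 alternatives and 45 fits that each left out 1 library, 170 differences of named members gave 2723 values with the same direction and call, 68 with the same direction past the threshold no longer, and 0 in the opposite direction. The count of called members stayed within 1.5 times for every comparison but the gSMARCA4_A2 effect minus the BRM014 effect at 8 d, which went to 6 with a replicate block, against 14 without; the cause was not tested. With the block CCRF-CEM had 25 called members, against 24 without, and the numbers pair no other groups by the correlation check. Every library correlated best with its own number in Jurkat at 6 h, gARID1A_1B, KOPT-K1 and TALL-1, a hint from the data only. With a filter of 5 TPM, which tests fewer genes, lower calls were 7 in place of 11 in gSMARCA4_A2 against gAAVS1 and 10 in place of 16 in gSMARCA4_A2 against gARID1A_1B. IFITM1 in gARID1A (-0.43) missed the threshold without any gARID1A library (limma adjusted p = 0.0817 to 0.132) and without gAAVS1 replicate 1 or 3 (0.133 and 0.142). IFITM2 in CCRF-CEM missed it with a pseudocount of 0.1 (0.31). Values of a few reads, such as IFI44 at 8 d, are limited by depth.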

Other observations

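Nucleic acid sensing genes outside the set, from a list of 20, were called in both directions. IKBKE, a kinase that activates IRF3 and IRF7, was lower in all 9 comparisons with a control. STING1, the adaptor of cytosolic DNA sensing, was lower in 8 and higher in TALL-1 (0.45). TLR9, a receptor for unmethylated DNA, fell by 2.59, 2.71 and 2.26 on the log2 scale in CCRF-CEM, KOPT-K1 and TALL-1 at 6 h. Of 15 tested in Jurkat, 1 was higher and 9 lower after 6 h of BRM014, against 26.8% and 20.7% of all genes, and 8 were higher and 4 lower after 8 d, against 36.9% and 23%.

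Over the means of the 9 Jurkat groups, genes with levels among those most like IFIT3 were SSBP3-AS1 (Pearson r = 0.94), ADM (0.94), KRT18 (0.93) and SSBP3 (0.93). These points share control libraries, and the values are a description over 9 groups.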
